A study of Bos taurus with 6 samples.

Results

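The genes for thioredoxin, peroxiredoxin and glutathione enzymes were followed in bovine blastocysts produced in vitro that differed in cryosurvival, that is, in survival after vitrification, a rapid ice-free freezing. The members were all genes of the deposited table whose symbol belongs to the peroxiredoxin, glutathione peroxidase, glutathione transferase, thioredoxin, glutaredoxin, superoxide dismutase or methionine sulfoxide reductase families, with the glutathione-synthesizing and glutathione-reducing enzymes, catalase, HMOX1 and NQO1. This gave 51 of the 9537 genes in the table. The high cryosurvival group and the low cryosurvival group had 3 libraries each, all of Bos taurus blastocysts grown in SOFaaci, a standard embryo culture medium. In the sample titles every high library also carries the code V and every low library the code NV. The codes are not explained there, so whatever they mark cannot be told apart from cryosurvival. The labels do not say how many embryos a library holds, whether libraries came from separate cultures, or at which step relative to vitrification the RNA was collected. The p-values therefore measure only the spread between these libraries, which may be technical.

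Cells keep hydrogen peroxide and lipid peroxides low with 2 connected thiol systems. In the first, thioredoxins pass electrons to peroxiredoxins and are themselves restored by thioredoxin reductase. In the other, glutathione serves glutathione peroxidases, glutaredoxins and glutathione transferases, and glutathione reductase recovers it, while both reductases draw on NADPH. Superoxide dismutases supply the peroxide from superoxide, and catalase removes it without a thiol. Many of these genes are targets of the transcription factor NRF2 (NFE2L2), which is held back by KEAP1. Embryos in culture can meet more oxygen than in the oviduct and uterus, and freezing and warming are known to add oxidant stress.

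The libraries held 14651477 to 19467022 reads in the table, and values are in CPM, that is, reads over a scaled size of each library. That scaled size was 13314545 for low library 2 and 17849260 to 20028832 for the other libraries. Trophectoderm markers, the outer cells of the blastocyst, summed to 32670 to 36140 CPM in high and 28010 to 38280 CPM in low libraries, with 11 of 14 listed genes measured. Epiblast or inner cell mass markers summed to 1493 to 1618 against 1434 to 1513 CPM (9 of 10 measured), and hypoblast markers to 2573 to 3251 against 2106 to 3464 CPM (11 of 15). Cumulus or granulosa cell genes summed to 428 to 551 against 401 to 549 CPM (8 of 15), and 2 of 10 sperm genes were measured. The ranges of the summed levels of high and low libraries overlapped for these lists, and low library 2 was the highest of the 6 libraries for the trophectoderm sum and the lowest for the hypoblast sum. Gene by gene, 8 of 11 hypoblast markers had a higher mean in the low group, with a median log2 difference of low minus high of 0.50, and 0.37 without low library 2. Of the trophectoderm markers 2 of 11 were higher, with a median of -0.13, and -0.15 without that library. Of the others, 5 of 9 epiblast or inner cell mass markers (median 0.0038, and -0.052 without low library 2), 3 of 8 cumulus or granulosa cell genes (median -0.16) and 0 of 2 sperm genes (median -0.34) were higher. None of these markers passed the limma test with all libraries, and their part in the results was not tested. In whole embryos, fewer cells of a type and less RNA per cell cannot be told apart. Low library 2 stood apart from the rest, being the highest of the 6 libraries for 34.4% of all genes and the lowest for 35.5%, and results that turn on it are also given without it. That library was picked out from these same values, so p-values without it only describe these libraries.

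No redox gene passed the test between the groups, and the majority direction of the members depended on low library 2. By limma on log2(CPM + 1), 0 of the 51 members had a Benjamini-Hochberg adjusted p below 0.05, as had 0% of all genes, and voom on the recovered reads also gave 0. At an unadjusted p below 0.05 there were 5 members, TXNRD1, HMOX1 and TXNDC11 higher and PRDX3 and MGST1 lower in low cryosurvival embryos. All genes reached this in 12.0% of cases, 6.27% higher and 5.70% lower, so the members' counts of 3 and 2 lie near the background. The members' adjusted p values ran from 0.241 to 0.997. The authors' deposited table called 0 members at an adjusted p below 0.05, against 1.20% of all genes, and HMOX1 came nearest there at an adjusted p of 0.069. Of the members, 31 had a positive and 20 a negative log2 difference of low minus high, with a median of 0.051 against 0.00023 for all genes. Without low library 2 the count was 17 positive and 34 negative, with a median of -0.11 against -0.0072 for all genes. Without low library 1 or low library 3 the positive members numbered 40 and 41.

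The 3 low libraries lay wholly above the 3 high libraries in 11 members and wholly below them in 2. Over all genes 10.4% lay above and 10.6% below. The 11 were TXNRD1, TXNL1, TXNDC11, TXNL4B, GSR, GCLM, GSS, GPX2, GSTM1, HMOX1 and NQO1, and the 2 were PRDX3 and MGST1. With 3 libraries in each group the smallest exact permutation p is 0.1, and single genes were therefore not tested in that way.

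**Figure D1:**
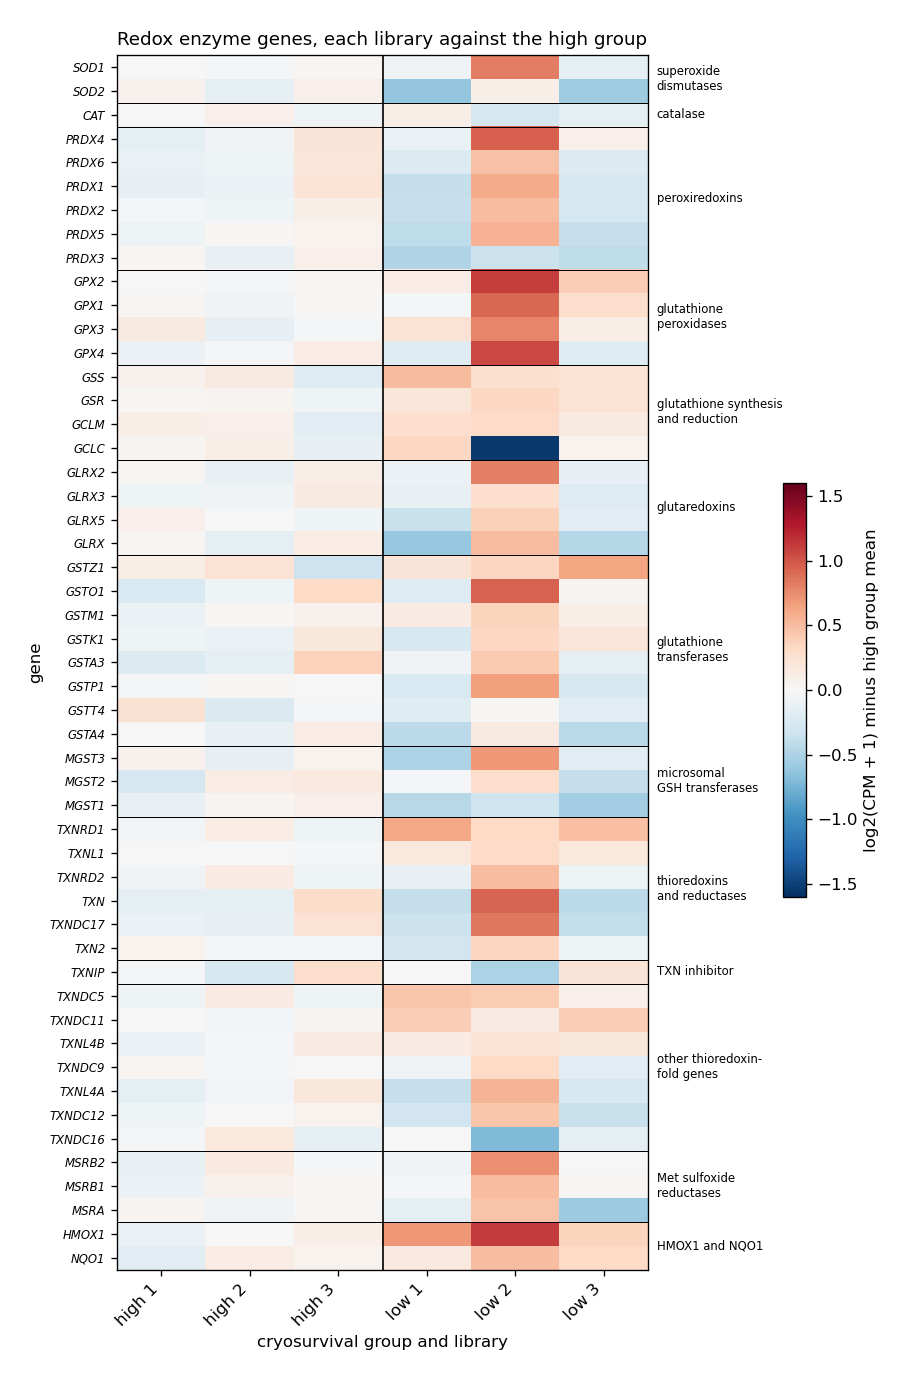
Each row is 1 of the 51 redox genes, grouped by role, and each column 1 library; colour gives log2(CPM + 1) minus the mean of the 3 high cryosurvival libraries, red above and blue below it. Low library 2 is red for most rows, with GCLC, TXNDC16, TXNIP and CAT among the blue ones, while low libraries 1 and 3 are blue for most peroxiredoxins and thioredoxins and red for TXNRD1, GSR, GCLM, GSS and HMOX1.

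The reductase that restores thioredoxin had the lowest adjusted p of all members. TXNRD1, the cytosolic thioredoxin reductase and a selenoprotein, was at 272, 302 and 265 CPM in high libraries 1, 2 and 3 and at 430.4, 349.6 and 389 CPM in low libraries 1, 2 and 3. The low libraries were all above the high ones, and low library 2 was the lowest of the low group. The means were 389.7 ± 40.4 CPM in low and 279.8 ± 19.9 CPM in high (SD, n = 3 each), a ratio of 1.39. The log2 difference was 0.47 ± 0.13 (SE; limma adjusted p = 0.241), and 0.55 ± 0.10 without low library 2 (limma adjusted p = 0.0264). In assembly ARS-UCD2.0 the span of TXNRD1 overlaps that of EID3, which the table lists as a gene of its own. The mitochondrial reductase TXNRD2 was at 16.5 to 19.1 CPM in high libraries and at 15.9, 25.01 and 16.4 CPM in the low ones. Its groups overlapped, because low library 2 was the highest and the other low libraries the lowest of the 6.

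The enzymes that make and recover glutathione shared the direction of TXNRD1 in low libraries 1 and 3. GSR, glutathione reductase, was at 98.4, 99.8 and 92.2 CPM in the high libraries and at 111, 122 and 113 CPM in the low libraries. The groups did not overlap, and low library 2 was close to the other low libraries at 1.09 times their mean. The log2 difference of GSR was 0.25 ± 0.11 (SE; limma adjusted p = 0.457). GSS, glutathione synthetase, which adds glycine in the last step of synthesis, was at 18.9, 19.9 and 15.5 CPM in high and 26.0, 21.6 and 21.1 CPM in low libraries, with a log2 difference of 0.33 ± 0.15 (SE; limma adjusted p = 0.468). GCLM, the modifier subunit of glutamate-cysteine ligase, was at 24.99, 24.6 and 20.4 against 28.2, 29.1 and 25.9 CPM, with a log2 difference of 0.24 ± 0.13 (SE; limma adjusted p = 0.569). For both genes every low library lay above every high library by small steps.

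GCLC, the catalytic subunit of the same ligase, did not follow its partner GCLM in low library 2. GCLC was at 67.7, 70.1 and 60.0 CPM in the high libraries and at 83.1, 21.9 and 68.6 CPM in the low libraries. Low libraries 1 and 3 were within or above the high range, while low library 2 was the lowest of all, with low libraries 1 and 3 averaging 3.47 times its level. The log2 difference of GCLC was -0.39 ± 0.46 (SE; limma adjusted p = 0.855) and turned to 0.20 without that library. In the same low library 2 GCLM, at 29.1 CPM, was the highest of the 6. No other member stood as low in low library 2 relative to the rest of its group.

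The 2 classical NRF2 target enzymes outside the thiol families were higher in every low library. HMOX1, heme oxygenase 1, which breaks heme down to biliverdin, iron and carbon monoxide, was at 35.4, 38.3 and 41.5 CPM in high and at 62.7, 84.2 and 49.5 CPM in low libraries. The groups did not overlap, and low library 3 lay nearest to the high group. The means were 65.5 ± 17.5 against 38.4 ± 3.04 CPM (SD, n = 3 each), a ratio of 1.71 and a log2 difference of 0.72 ± 0.20 (SE; limma adjusted p = 0.245). This was the largest difference among the 51 members. Without low library 2 it was 0.53 (limma adjusted p = 0.0447). NQO1, a quinone reductase, was lowly expressed at 3.42, 4.46 and 4.21 CPM in high and 4.59, 6.08 and 5.24 CPM in low libraries. Its log2 difference was 0.32 ± 0.15 (SE; limma adjusted p = 0.465), and its lowest low library exceeded its highest high library by a small margin.

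**Figure D2:**
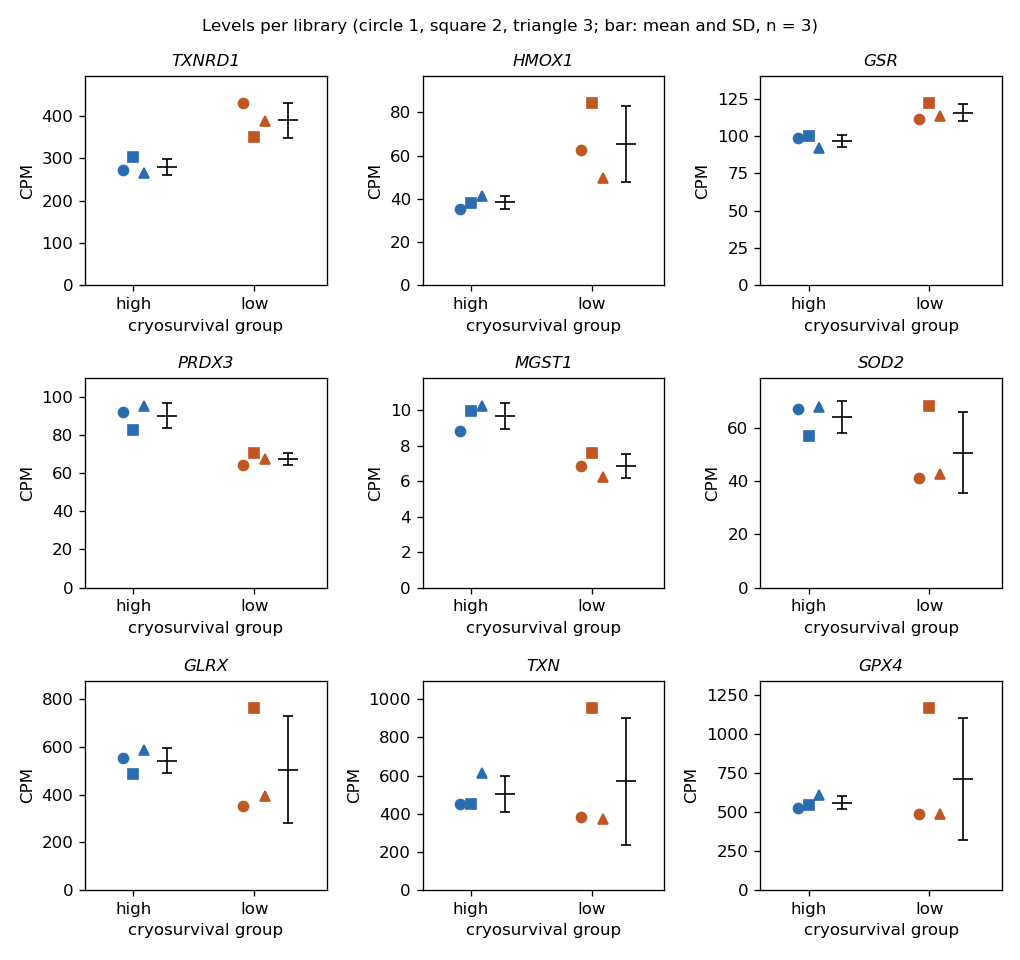
Levels in CPM (axis from 0) of 9 redox genes in each library, with high cryosurvival in blue and low in orange; symbols give library 1 (circle), 2 (square) and 3 (triangle), and black bars the mean and SD of 3. TXNRD1, HMOX1 and GSR are above the high range in all low libraries and PRDX3 and MGST1 below it; for SOD2, GLRX, TXN and GPX4 the square of low library 2 lies above the high libraries and the other low libraries below them.

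Among the peroxiredoxins, the thiol peroxidases served by thioredoxin, PRDX3 was the one whose groups did not overlap. PRDX3, the mitochondrial peroxiredoxin, was at 91.8, 82.6 and 95.2 CPM in high libraries and at 64.0, 70.4 and 67.5 CPM in low libraries. All low libraries lay below all high ones, low library 2 included, at 1.07 times the mean of the other low libraries. The means were 89.9 ± 6.51 CPM in high and 67.3 ± 3.19 CPM in low (SD, n = 3 each), a high over low ratio of 1.34. The log2 difference was -0.41 ± 0.12 (SE; limma adjusted p = 0.254), and -0.44 without low library 2 (limma adjusted p = 0.037).

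The cytosolic peroxiredoxins PRDX1 and PRDX2 had the most reads of all members. PRDX1 was at 1615, 1662 and 2060.2 CPM in high and at 1359, 2670.4 and 1479.6 CPM in low libraries, and PRDX2 at 1358, 1332 and 1488 against 1072, 1961 and 1142 CPM. In both genes low libraries 1 and 3 lay below every high library and low library 2 above every one. The log2 differences were therefore near 0, at -0.014 ± 0.27 and -0.055 ± 0.24 (SE; limma adjusted p = 0.991 and 0.97), and -0.32 and -0.33 without low library 2. PRDX5, found in mitochondria and peroxisomes, and PRDX6, which uses glutathione, had the same order of libraries. PRDX5 was at 236, 254 and 259 CPM in high and 188, 367 and 193 CPM in low libraries, and without low library 2 its log2 difference was -0.39 (limma adjusted p = 0.0394). PRDX6 was at 252 to 312 CPM in high libraries, 377 CPM in low library 2, and 234 and 233 CPM in low libraries 1 and 3. PRDX4, of the endoplasmic reticulum, was at 32.6 to 42.5 CPM in high and at 33.8, 71.9 and 38.6 CPM in low libraries, so that low libraries 1 and 3 were inside the high range. Peroxiredoxins are alike in sequence and have processed copies in mammalian genomes, and the labels do not say how shared reads were assigned.

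For both superoxide dismutases, which convert superoxide to peroxide, low libraries 1 and 3 lay below the high group, by more for SOD2 than for SOD1. SOD2, the mitochondrial manganese enzyme, was at 67.1, 57.1 and 67.8 CPM in high libraries and at 41.3, 68.3 and 42.6 CPM in low libraries. Low libraries 1 and 3 were well below the high range, and low library 2 just above it. The log2 difference of SOD2 was -0.36 ± 0.21 (SE; limma adjusted p = 0.606), and -0.59 ± 0.11 without low library 2 (limma adjusted p = 0.0242), which was the lowest adjusted p of any member in that comparison. SOD1, the cytosolic copper and zinc enzyme, was at 88.2, 86.2 and 90.2 CPM in high and 84.6, 156 and 78.9 CPM in low libraries. Its low libraries 1 and 3 were only slightly below the high range. SOD1 had a log2 difference of 0.20 ± 0.26 (SE; limma adjusted p = 0.865), which was -0.11 without low library 2. Catalase (CAT), the peroxisomal enzyme, was at 95.4, 101 and 90.0 CPM in high and 103, 78.0 and 86.0 CPM in low libraries, and the groups overlapped with a log2 difference of -0.11 ± 0.14 (SE; limma adjusted p = 0.874), which was -0.018 without low library 2.

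All 4 measured glutathione peroxidases had a positive log2 difference, and in all 4 low library 2 was the highest library. GPX2, an epithelial form, was the one whose groups did not overlap, at 7.67, 7.45 and 7.88 CPM in high and 8.44, 17.7 and 10.4 CPM in low libraries. Its log2 difference was 0.54 ± 0.25 (SE; limma adjusted p = 0.467) and 0.26 without low library 2. GPX1, the cytosolic form, was at 183, 173 and 182 CPM in high and 176, 339.6 and 217 CPM in low libraries. Low library 1 of GPX1 was within the high range and low library 3 above it, and the log2 difference of 0.39 ± 0.24 (SE; limma adjusted p = 0.624) became 0.12 without low library 2. GPX4, which reduces lipid peroxides in membranes, was at 524, 547 and 607 CPM in high and 487, 1164 and 487 CPM in low libraries. Low library 2 was at 2.39 times the mean of the other low libraries, both of which lay below the high group. The log2 difference of GPX4 was 0.22 ± 0.34 (SE; limma adjusted p = 0.895), and it turned to -0.20 when low library 2 was left out. GPX3, a secreted form at 2.67 to 3.47 CPM in high and 3.35 to 5.93 CPM in low libraries, overlapped between the groups.

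The thioredoxins had another order of libraries than their cytosolic reductase. TXN, cytosolic thioredoxin, was at 449, 453 and 613 CPM in high and 383, 954 and 373 CPM in low libraries. Low libraries 1 and 3 were below the high range and low library 2 was far above it, at 2.52 times the mean of the other low libraries, the largest such ratio among the members. The log2 difference was 0.043 ± 0.37 (SE; limma adjusted p = 0.988), and -0.40 without low library 2 (limma adjusted p = 0.115). TXNDC17, a small cytosolic thioredoxin-like protein, and the mitochondrial thioredoxin TXN2 had the same order of libraries. TXNDC17 was at 51.8, 50.6 and 65.2 against 43.4, 101 and 42.0 CPM and TXN2 at 206, 195 and 196 against 162, 253 and 187 CPM. TXNL1, a thioredoxin-like protein bound to the proteasome, differed from these, at 193, 193 and 189.8 CPM in high and 215, 237 and 216 CPM in low libraries. Its low libraries were all above its high libraries, which lay within a few CPM of each other, and its log2 difference was 0.21 ± 0.11 (SE; limma adjusted p = 0.554). TXNIP, which binds and inhibits thioredoxin, was at 16.8, 14.0 and 20.9 CPM in high and 17.0, 11.7 and 19.8 CPM in low libraries, overlapping, with low library 2 the lowest.

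The 4 glutaredoxins, which reduce glutathionylated proteins or carry iron-sulfur clusters, each had low library 2 as the highest of the 6 libraries. GLRX, the cytosolic dithiol form, was at 553, 487 and 588 CPM in high and 355, 763 and 396 CPM in low libraries. Its low libraries 1 and 3 were well below the high range and low library 2 above it. The log2 difference was -0.19 ± 0.29 (SE; limma adjusted p = 0.895), and -0.53 ± 0.11 without low library 2 (limma adjusted p = 0.0352). GLRX3, a cytosolic iron-sulfur protein, was at 165, 167 and 193 against 161, 210.0 and 152 CPM, and its group difference was -0.017 ± 0.16 (SE; limma adjusted p = 0.988) and -0.16 without low library 2. The mitochondrial GLRX5, which hands on iron-sulfur clusters, was at 95.5 to 106 CPM in high libraries, with low library 2 at 131 CPM and the other low libraries at 78.2 and 88.3 CPM. For the mitochondrial GLRX2, low library 2 was at 55.0 CPM and the other 5 libraries between 28.4 and 33.4 CPM.

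Other genes of the thioredoxin fold went in different directions. TXNDC11, a protein of the endoplasmic reticulum known to bind dual oxidases, was at 54.2, 52.2 and 55.9 CPM in high and 71.4, 59.3 and 71.5 CPM in low libraries. Every low library was above every high one, and low library 2 was the nearest to the high group. The log2 difference was 0.31 ± 0.13 (SE; limma adjusted p = 0.411), and 0.40 without low library 2 (limma adjusted p = 0.0348). TXNDC5, a disulfide isomerase of the endoplasmic reticulum, was at 95.1, 109.6 and 95.6 against 136, 133 and 106 CPM, where low library 3 was within the high range (log2 difference 0.31 ± 0.15, SE; limma adjusted p = 0.485). TXNDC16, a luminal protein of the same compartment, was at 111, 126 and 102 against 113, 68.4 and 101 CPM. Low library 2 was the lowest there and the groups overlapped, with a log2 difference of -0.28 ± 0.21 (SE; limma adjusted p = 0.707), which was -0.070 without that library. TXNL4A and TXNL4B carry the family name but are known as parts of the splicing machinery. TXNL4B was at 29.0, 30.3 and 34.0 CPM in high and 34.2, 36.4 and 35.4 CPM in low libraries, without overlap, while low libraries 1 and 3 of TXNL4A, at 38.0 and 41.2 CPM, lay below its high range of 44.8 to 56.5 CPM. TXNDC9 and TXNDC12 had the library order of TXNL4A, with low library 2 highest at 41.8 and 29.0 CPM. The gene span of TXNDC12 overlaps that of KTI12, which was also measured.

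The glutathione transferases, which join glutathione to electrophiles, had log2 differences from -0.24 to 0.40. GSTP1, the most read of them, was at 879, 904 and 887 CPM in high libraries and at 752, 1401 and 743 CPM in low libraries. The high libraries lay within a narrow band, low library 2 was far above it and low libraries 1 and 3 below it. Its log2 difference of 0.051 ± 0.25 (SE; limma adjusted p = 0.977) became -0.25 without low library 2 (limma adjusted p = 0.0828). GSTA4, which acts on lipid aldehydes, was at 8.68, 7.97 and 9.54 against 6.24, 9.69 and 6.18 CPM, a log2 difference of -0.24 ± 0.19 (SE; limma adjusted p = 0.73) and of -0.43 without low library 2 (limma adjusted p = 0.0405). GSTM1 was at 8.07, 8.97 and 9.15 against 9.69, 11.4 and 9.37 CPM, with no overlap but steps between the groups of a few reads' worth. GSTA3 was at 9.41, 9.96 and 14.6 against 10.6, 15.2 and 9.95 CPM, and the groups overlapped. GSTK1, GSTT4, GSTO1 and GSTZ1 ranged from 1.61 to 10.4 CPM over all libraries, and each overlapped between the groups. GSTZ1, at 1.61 to 4.08 CPM, had the largest log2 difference of the transferases, 0.40 ± 0.19 (SE; limma adjusted p = 0.502). The gene span of GSTZ1 overlaps that of POMT2, which was also measured. Alpha and mu class transferases have close paralogs that may share reads.

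MGST1 was the member with the largest negative difference. This membrane-bound transferase and peroxidase of the endoplasmic reticulum and outer mitochondrial membrane was at 8.85, 9.96 and 10.3 CPM in high and 6.84, 7.59 and 6.23 CPM in low libraries. All low libraries lay below all high ones, and low library 2 was the third lowest of the 6. The means were 9.69 ± 0.743 against 6.89 ± 0.679 CPM (SD, n = 3 each), a high over low ratio of 1.41. The log2 difference of MGST1 was -0.44 ± 0.13 (SE; limma adjusted p = 0.25), and -0.50 without low library 2 (limma adjusted p = 0.0313). MGST3 was at 17.2, 14.8 and 17.0 against 11.2, 26.9 and 14.3 CPM, with low library 2 above and the others below the high range. The groups of MGST2 overlapped, at 6.11 to 8.60 CPM in high and 5.60 to 9.46 CPM in low libraries. Of the methionine sulfoxide reductases, which repair oxidized methionine, MSRB1, a selenoprotein, was at 302, 339 and 331 against 316, 455 and 327 CPM. MSRA was at 12.9, 12.0 and 12.6 against 11.2, 17.5 and 8.06 CPM, and MSRB2 had as few as 24 reads in a library, the fewest of any member. Differences in these 3 were within the spread of the low group, with log2 values of 0.16 for MSRB1, -0.092 for MSRA and 0.23 for MSRB2, which were -0.0095, -0.36 and -0.024 without low library 2.

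One order of libraries recurred through the family. In 21 of the 51 members low library 2 lay above every high library while low libraries 1 and 3 lay below every high library. Over all genes 13.4% had this order. The reverse order was found in 1244 of the 9537 genes and in 0 members. The 21 members included PRDX1, PRDX2, PRDX5, PRDX6, TXN, TXN2, TXNDC17, TXNRD2, GLRX, GLRX3, GLRX5, GPX4, SOD1, SOD2 and GSTP1. The other 6 were GSTA4, MGST3, MSRA, TXNDC9, TXNDC12 and TXNL4A. Low library 2 was the highest of the 6 libraries in 39 members (76.5%), against 34.4% of all genes, and the lowest in 4 members, CAT, GCLC, TXNDC16 and TXNIP. The median over members of its level relative to the mean of low libraries 1 and 3 was 1.50, against 0.979 for all genes. The labels name nothing that sets low library 2 apart. It had the fewest reads in the table, 14651477, and a ratio of those reads to its scaled library size of 1.1. In the other libraries this ratio was 0.961 to 0.996. What made low library 2 differ was not tested.

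**Figure D3:**
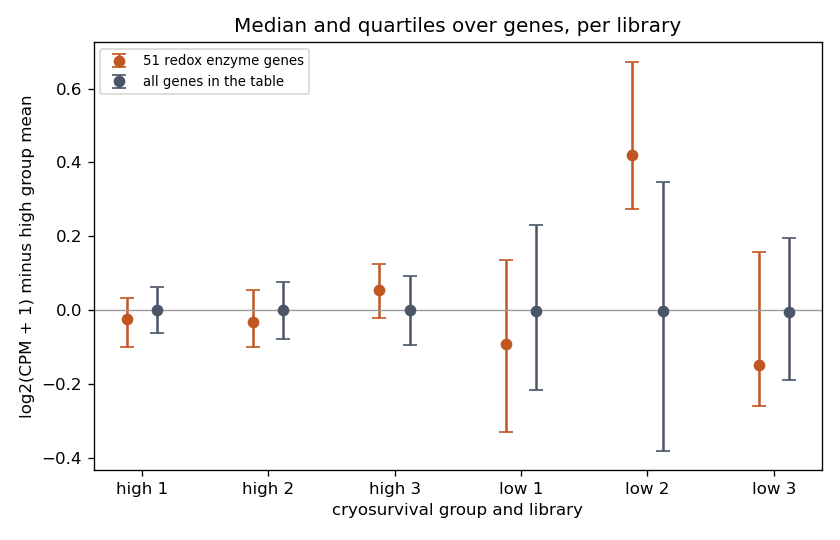
Points give, for each library, the median over genes of log2(CPM + 1) minus the mean of the high group, and bars the quartiles over genes, for the 51 redox genes (orange) and all 9537 genes (grey). The members' median is 0.42 in low library 2 and -0.091 and -0.15 in low libraries 1 and 3, while the medians of all genes are near 0 in every library.

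When low library 2 was left out, 9 of the 51 members passed the test, in both directions, as did 13.6% of all genes. TXNRD1, HMOX1 and TXNDC11 rose in low relative to high cryosurvival embryos, 3 of 51 members against 8.15% of all genes called in this direction. SOD2, GLRX, MGST1, PRDX3, PRDX5 and GSTA4 fell, 6 of 51 members against 5.48% of all genes. PRDX5 falls outside the rule for named genes and was singled out after its values were seen. Low library 2 was picked out from these same values, and the comparison then rests on 2 low libraries against 3 high ones. In it 13.6% of all genes were called, and each of the other fits with 1 library left out called 0. Its adjusted p values are therefore not independent support for these genes. The adjusted p values of the 9 by limma ran from 0.0242 for SOD2 to 0.0447 for HMOX1. PRDX3 and MGST1 had the same direction in low library 2, whereas SOD2, GLRX, PRDX5 and GSTA4 had the opposite one there. The log2 differences of 18 members changed sign when this library was left out. The 2 remaining low libraries lay wholly above the high libraries in 11 members and wholly below them in 23, against 27.6% and 27.5% of all genes.

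**Figure D4:**
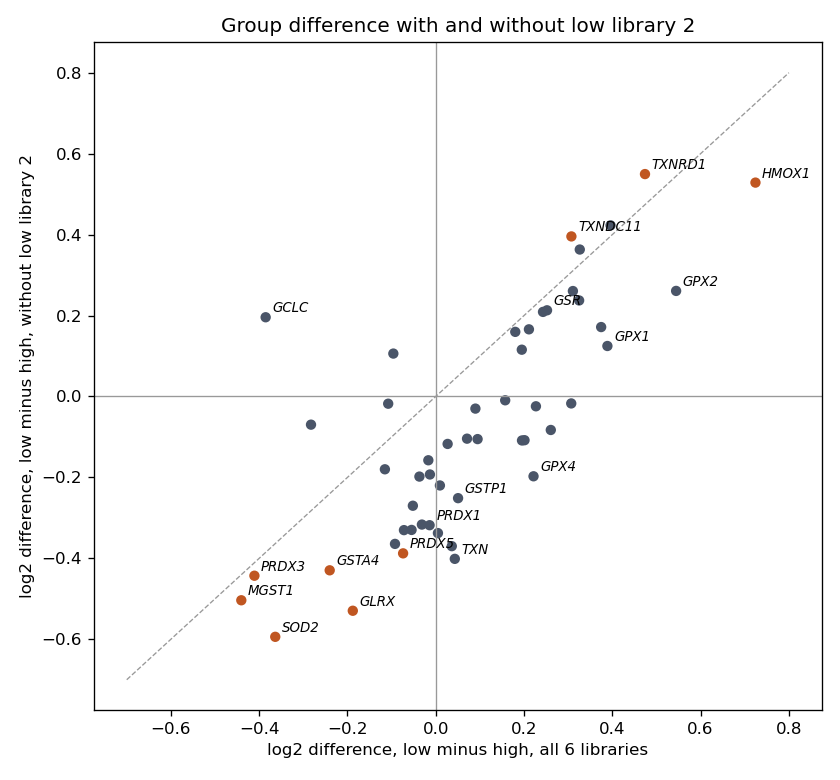
Each point is 1 of the 51 redox genes; the horizontal axis gives the log2 difference, low minus high cryosurvival, with all 6 libraries and the vertical axis the same without low library 2, and the dashed line marks equal values. Orange points are the 9 genes with a limma adjusted p below 0.05 without that library; TXNRD1, PRDX3 and MGST1 stay near the line, while TXN and GPX4 fall from above 0 to below it and GCLC moves the other way.

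The regulators and partners of these enzymes were taken from lists of other genes of the pathway. Of their 111 measured genes, each counted once, 0 were called by limma with all libraries, 16 (14.4%) had an unadjusted p below 0.05 against 12.0% of all genes, and the median log2 difference was 0.014, or -0.029 without low library 2. Among 10 measured genes of NRF2 control, 7 had a positive difference, with a median of 0.22. NFE2L2 itself was at 125, 125 and 128 CPM in high and 131, 112 and 121 CPM in low libraries, and its groups overlapped (log2 difference -0.056 ± 0.12, SE; limma adjusted p = 0.929; -0.00052 without low library 2). KEAP1, its inhibitor, was at 78.9, 77.8 and 67.7 against 99.2, 108 and 93.7 CPM. Every low library of KEAP1 was above every high one, with a log2 difference of 0.42 ± 0.13 (SE; limma adjusted p = 0.268). MAFF, a small MAF protein that pairs with NRF2 on DNA, was at 11.1, 13.5 and 13.03 against 31.3, 37.5 and 23.0 CPM. It had the largest difference on these lists, 1.20 ± 0.20 on the log2 scale (SE; limma adjusted p = 0.142), and it was called in the authors' deposited table. Of 21 NRF2 targets outside the member rule, 14 were positive, with a median of 0.062. Without low library 2 these were 10 positive and 11 negative, with a median of -0.0022. SRXN1, which restores overoxidized peroxiredoxins, was at 22.3, 27.4 and 19.0 against 22.5, 19.2 and 12.7 CPM, a log2 difference of -0.34 ± 0.24 (SE; limma adjusted p = 0.675), and its groups overlapped.

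Among genes of cysteine supply and glutathione turnover, CTH and OPLAH lay below the high group in every low library. Of 24 measured genes of glutathione and cysteine handling, 15 had a negative difference, with a median of -0.077, and 5 lay wholly below the high libraries and 1 wholly above, where 10.6% and 10.4% of all genes did so. CTH, cystathionine gamma-lyase, which makes cysteine, was at 60.5, 60.0 and 59.8 CPM in high and 44.8, 36.8 and 40.2 CPM in low libraries. The groups were far apart and low library 2 was the lowest, with a log2 difference of -0.56 ± 0.12 (SE; limma adjusted p = 0.176). OPLAH, which returns 5-oxoproline to glutamate in glutathione turnover, was at 294, 282 and 269 against 190.5, 201 and 205 CPM, also without overlap (log2 difference -0.50 ± 0.11, SE; limma adjusted p = 0.179). Both passed without low library 2, at limma adjusted p values of 0.0249 and 0.0241. CTH and OPLAH, like MAFF and KEAP1, show their difference in all 3 low libraries. They were named after their values were seen, except KEAP1. Among 17 NADPH supply genes 9 were positive and the median was 0.00081, while 3 lay wholly below the high libraries and 0 wholly above.

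Of 15 measured protein disulfide isomerases and partner proteins, 12 had a positive difference and 6 lay wholly above the high libraries, as did 10.4% of all genes. Their median was 0.14. Of the 13 oxidant source genes 3 lay wholly below the high libraries and 0 wholly above, against 10.6% and 10.4% of all genes. Their median was -0.045 (-0.019 without low library 2), with 6 positive. The 9 sestrin and oxidized-DNA repair genes had a median of -0.094 (-0.17 without it), with 3 positive. The 6 selenoprotein synthesis genes had a median of -0.0019 (-0.091 without it), with 3 positive. Of the 13 genes listed as other selenoproteins, 1 was matched by name, SELENBP1, a selenium-binding protein that is not itself a selenoprotein. By limma 0 genes of these lists were called with all libraries, and without low library 2 the 9 lists together had 10 called higher and 7 lower of their 111 genes, where 8.15% and 5.48% of all genes were called.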

How the data were processed

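Per the labels' protocols, total RNA of bovine blastocysts was purified with a column kit and DNase, with library preparation by a NEBNext Ultra II RNA kit. The submitters' processing notes name HTSeq 0.5.4p2, DESeq 1.12.1, Cufflinks 2.1.1, TopHat2 2.0.8, SAMtools 0.1.18 and Bowtie2 2.1.0 and give none of them a role. The genome build and strand setting are not given in the sources, so no coordinates or sequences are printed, and reads of overlapping or antisense genes could not be separated.

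The authors' deposited table gives CPM per library, a log2 fold of high over low (its sign was turned here), p-values and adjusted p-values with 3 decimals. Its lowest mean was 0.737 CPM, and lower genes were not analysed here. The unit was worked out from the values: dividing by the smallest step of a library, 0.0499 to 0.0751 CPM, gave a whole number to within 0.05 for 100% of the values up to 1000 CPM, and this step was taken as 1 read. Reads in the table over the scaled library size were 0.961 to 0.996, and 1.1 in low library 2. Depth allowed at least 24 reads for every member in every library. All 51 member names were found in the gene table of ARS-UCD2.0, GSTM1 as a synonym.

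Groups were taken from the sample titles. The groups were compared on log2(CPM + 1) by limma 3.58.1 (R 4.3.3) over all 9537 genes and 6 libraries without covariates. P-values were adjusted by Benjamini-Hochberg over the whole table, with a threshold of 0.05. The pseudocount of 1 understates changes of low genes. The script was tested on simulated data. Values in every library are given for the 2 members of highest mean per role, the 6 with the largest log2 difference per direction and up to 15 whose groups do not overlap, the last 2 at a mean of at least 5 CPM, and for further members named after their values were seen. The fits were repeated with another pseudocount, a filter, other scalings, voom, a replicate block and each library left out. The members and lists were chosen with earlier results of these data known.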

Additional observations from a re-analysis of the deposited data

How the results depend on the processing

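With each library left out in turn, the count of members called ran from 0 to 9, of all genes called from 0 to 1300, of pathway genes called from 0 to 17, and of members whose groups did not overlap from 13 to 34. The upper ends are all from the fit without low library 2 (9 members, 3 higher and 6 lower; 1300 genes, 777 higher and 523 lower; 17 pathway genes, 10 higher and 7 lower; 34 members, 11 higher and 23 lower). The other 5 fits called 0 genes. The median log2 difference of the members ran from -0.11 to 0.20. Of the 51 members, 21 kept their sign in all 6 of these fits and 30 did not. Those that turned only without low library 2 ran over the following log2 differences: GCLC -0.74 to 0.20, GLRX2 -0.11 to 0.36, GPX4 -0.20 to 0.43, GSTK1 -0.030 to 0.26, GSTO1 -0.083 to 0.50, GSTP1 -0.25 to 0.21, MSRB1 -0.0095 to 0.25, MSRB2 -0.024 to 0.37, PRDX4 -0.017 to 0.52, SOD1 -0.11 to 0.38, TXNDC9 -0.12 to 0.13, TXNRD2 -0.11 to 0.20. Those that turned without another library, or without several, ran over: GLRX -0.53 to 0.022, GLRX3 -0.16 to 0.076, GLRX5 -0.27 to 0.10, GSTA3 -0.10 to 0.25, GSTT4 -0.23 to 0.0091, MGST2 -0.20 to 0.13, MGST3 -0.34 to 0.26, MSRA -0.36 to 0.15, PRDX1 -0.32 to 0.17, PRDX2 -0.33 to 0.11, PRDX5 -0.39 to 0.093, PRDX6 -0.22 to 0.13, TXN -0.40 to 0.27, TXN2 -0.19 to 0.13, TXNDC12 -0.33 to 0.067, TXNDC17 -0.37 to 0.25, TXNIP -0.25 to 0.11, TXNL4A -0.32 to 0.14. The cause was not tested.

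Members called stayed at 0 with a pseudocount of 0.25, among genes of at least 5 CPM, with median-of-ratios scaling, with the replicate block, with voom on the recovered reads and with scaling by the reads in the table, the last 2 chosen after seeing the data. All genes called were 7 with the pseudocount of 0.25 and 7 among genes of at least 5 CPM, where fewer genes are tested. Unadjusted p values below 0.05 were found for 1142 genes, for 1120 by voom and for 797 with the replicate block. With voom the log2 difference of MGST3 turned to -0.044. With scaling by the reads in the table, which moved the median of all genes by less than 0.1, it was -0.023, PRDX6 was at -0.019 and TXNDC9 at -0.00067. edgeR and DESeq2 on the recovered reads were not run. Same-numbered libraries of the groups had correlations of deviations of 0.123, -0.261 and -0.312. Deviations from the mean of so few libraries are tied to each other. These correlations therefore cannot show whether the numbers pair the libraries. The replicate block gave 0 called members and 0 called genes.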
